A study of Mus musculus with 19 samples.

Results

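The genes described here are 42 genes of B cells and plasma cells, listed by their known roles: the antigen receptor and the receptors that tune it, other B cell surface proteins, kinases and adaptors below the receptor, B lineage transcription factors, TNF receptor family members with the ligand Ltb, and plasma cell factors with antibody genes. The list was not built from measured values of a comparison, but it was chosen with earlier results of these data known. Of the 42 genes, 40 were among the 32694 gene symbols of the deposited table, and Ighm and Ighg2b were not analysed here. All 40 reached a normalized count of 10 in at least 5 libraries and were tested among 18445 genes. Pax5, Fcmr and Fcrl5 reached it only because the wild-type libraries were counted, and Pax5 lay below 10 in every tumour library. These 3 had to be lower in the tumours to be tested in this way, so they are described by their values, with no fold change or p. For the fit of all libraries, counts of genes lower in the tumours are also given without them.

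The study sequenced poly-A RNA from the colon of mice aged 12 weeks, 1 library per mouse. Wild-type colon came from 5 mice (3 female, 2 male) and carried none of the engineered deletions. Apc tumours were 7 single colon tumours (3 female, 4 male) from mice in which Villin-Cre removed 1 allele of Apc, the tumour suppressor of the Wnt pathway. Apc/Tgif tumours were another 7 (3 female, 4 male) from mice in which Villin-Cre removed 1 allele of Apc and both alleles of Tgif1 and of Tgif2, which encode related homeodomain repressors. Villin-Cre acts in the gut epithelium, so B lineage cells are not the cells it is known to recombine. The tumour groups share the Apc deletion and the Cre, and no group here has the Tgif deletions alone. The wild-type samples are labelled as normal colon tissue and the tumours as tumour tissue, so tissue and genotype cannot be told apart in a comparison with wild-type colon.

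B cells recognise antigen with a membrane antibody coupled to the signalling pair CD79A and CD79B, and in the gut they gather in lymphoid follicles, where naive and germinal centre B cells sit. Cells that switch to IgA leave as plasmablasts, settle in the lamina propria and secrete IgA dimers held together by the J chain. The polymeric immunoglobulin receptor of the epithelium, encoded by Pigr, carries these dimers into the lumen. Plasma cells lose much of the B cell programme under the repressor BLIMP1, encoded by Prdm1, and so the B cell and plasma cell genes mark different stages.

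Library totals lay between 34417808 and 44732717 normalized counts. Tgif1 ranged from 2785 to 4965 in Apc tumours and from 251 to 654 in tumours labelled Apc/Tgif, while Tgif2 was higher in the latter (2141 to 3107) than in Apc tumours (476 to 764). Which parts of these genes were deleted is unknown here, so the gene totals do not check the Tgif2 label, and every direction for Apc/Tgif tumours rests on the labels. Epithelial markers (Epcam, Cdh1, Krt8, Krt18, Krt19, Vil1 and Cdx2) summed to between 409290 and 508389 in wild-type colon. Their sums were 260145 to 479500 in Apc tumours and 310060 to 386316 in Apc/Tgif tumours, which all lay below wild-type colon. Wild-type replicate 1 stood apart among the wild-type libraries: it was the lowest of the 5 for 26 of the 40 genes, and its summed level over 6 pan-leukocyte genes was 3402 against 5502 to 10103 in the other 4. The ribosomal RNA gene Rn45s made up 2.93% and 3.5% of the total in wild-type replicates 2 and 4 and 9.35% in Apc/Tgif replicate 5, against 0.171% to 0.7% elsewhere. In whole tissue, fewer cells of a type and less RNA per cell cannot be told apart.

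These promoters are shown because they hold the motifs counted in them and belong to genes lower in both tumour groups than in wild-type colon. For Fcmr, tested only through the wild-type libraries, this rests on its values alone. The Vpreb3 call in Apc/Tgif tumours was lost in 10 alternative settings, among them females alone (log2 fold change −0.03, limma adjusted p = 0.974). The sequences are RefSeq promoters on GRCm38.p6, each running 5′ to 3′ on the gene's strand from 250 bases before the start to 50 after it, and 32 of the 42 genes had an entry. Capitals mark an ETS core (GAGGAA or its reverse complement) in Fcmr and Fcrl1, an EBF palindrome (CCCNNGGG) in Spib, where overlapping matches run together, and the POU octamer (ATGCAAAT, here on the opposite strand) in Vpreb3.
Fcmr, chr1:130865527-130865826, plus strand: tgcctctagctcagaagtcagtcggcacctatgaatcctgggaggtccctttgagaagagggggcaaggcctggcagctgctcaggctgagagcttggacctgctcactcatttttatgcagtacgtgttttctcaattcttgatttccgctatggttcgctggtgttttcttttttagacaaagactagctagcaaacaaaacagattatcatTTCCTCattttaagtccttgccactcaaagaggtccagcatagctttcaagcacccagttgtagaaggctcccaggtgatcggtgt
Fcrl1, chr3:87376137-87376436, plus strand: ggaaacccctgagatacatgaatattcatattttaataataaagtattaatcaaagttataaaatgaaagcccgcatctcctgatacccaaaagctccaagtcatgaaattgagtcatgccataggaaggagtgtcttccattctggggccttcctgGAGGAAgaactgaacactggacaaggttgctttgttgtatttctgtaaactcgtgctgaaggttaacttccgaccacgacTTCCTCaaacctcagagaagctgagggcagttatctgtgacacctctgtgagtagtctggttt
Spib, chr7:44532022-44532321, minus strand: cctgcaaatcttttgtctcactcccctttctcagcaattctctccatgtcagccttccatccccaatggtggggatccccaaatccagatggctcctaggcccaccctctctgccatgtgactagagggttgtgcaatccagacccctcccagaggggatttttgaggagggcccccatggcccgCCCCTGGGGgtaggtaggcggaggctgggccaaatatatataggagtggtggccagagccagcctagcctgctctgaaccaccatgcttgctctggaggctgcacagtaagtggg
Vpreb3, chr10:75948050-75948349, plus strand: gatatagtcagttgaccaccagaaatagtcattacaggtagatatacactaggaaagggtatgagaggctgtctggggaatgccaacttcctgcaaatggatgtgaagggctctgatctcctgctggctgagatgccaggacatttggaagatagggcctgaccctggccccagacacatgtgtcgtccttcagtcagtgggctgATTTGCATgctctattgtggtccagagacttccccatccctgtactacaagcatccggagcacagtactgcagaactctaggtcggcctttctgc

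Searched on both strands of the whole window, the ETS core was found in 17 of the 32 promoters (53.1%) and in 31.3% of 27025 genes with a promoter in the table. The EBF palindrome was found in 5 of 32 (15.6%; Bank1, Cd22, Cd27, Sdc1 and Spib) and in 15.4% of all genes. The octamer was found in 2 of 32 (6.25%; Blnk and Vpreb3) and in 1.97% of all genes. No test was made of these shares, and a match is only a match of letters. The factors known to bind such motifs are among the genes measured: SPIB binds ETS cores, EBF1 the palindrome, and OCT1 and OCT2 (Pou2f1 and Pou2f2) the octamer with the coactivator encoded by Pou2af1.

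The comparison of Apc tumours with wild-type colon asked which of these genes differ between tumour and normal tissue. Of the 40 genes, 34 were lower in Apc tumours, 3 were higher (Bcl11a, Prdm1 and Sdc1) and 3 were not called (Cd40, Pou2f1 and Ighg1) at a limma adjusted p under 0.05. Over all 18445 genes, 25.2% were called lower and 23.9% higher. Without Pax5, Fcmr and Fcrl5, 31 of 37 were lower, with a median log2 fold change of −1.84 against −0.01 over all genes tested. In 19 of these 37 the 7 tumours all lay below the 5 wild-type libraries, and in 2 all lay above, against 15.4% and 14.0% of all genes. Ighd, Cr2 and Ms4a1 each fell by more than 5 on the log2 scale, while the antibody secretion genes Igha, Jchain and Mzb1 fell by 1.54 to 1.82.

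Apc/Tgif tumours were compared with the same 5 wild-type libraries, so the comparisons of the tumour groups with wild-type colon share their controls. Here 31 genes were lower, 4 were higher (Bcl11a, Pou2f1, Prdm1 and Sdc1) and 5 were not called (Cd72, Cd40, Blnk, Cd27 and Ighg1). Over all genes, 25.5% were called lower and 24.8% higher. Without Pax5, Fcmr and Fcrl5, 28 of 37 were lower, with a median of −1.86 against 0.00 over all genes. The 7 tumours all lay below wild-type colon in 19 of these 37 and above it in 3, against 16.5% and 14.1% of all genes. Without the 3 libraries high in Rn45s, 27 of the 40 genes were lower in Apc tumours and 25 in Apc/Tgif tumours, against 20.9% and 21% of all genes. Both counts include Pax5, Fcmr and Fcrl5, which had to be lower to be tested. The calls lost were those of Blnk, Cd72, Vpreb3, Tnfrsf13b, Ltb, Mzb1 and Igha in Apc tumours (adjusted p from 0.0506 for Mzb1 to 0.177 for Ltb) and of Btk, Cd37, Vpreb3, Ltb, Jchain and Igha in Apc/Tgif tumours (adjusted p from 0.057 for Jchain to 0.258 for Vpreb3).

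**Figure D1:**
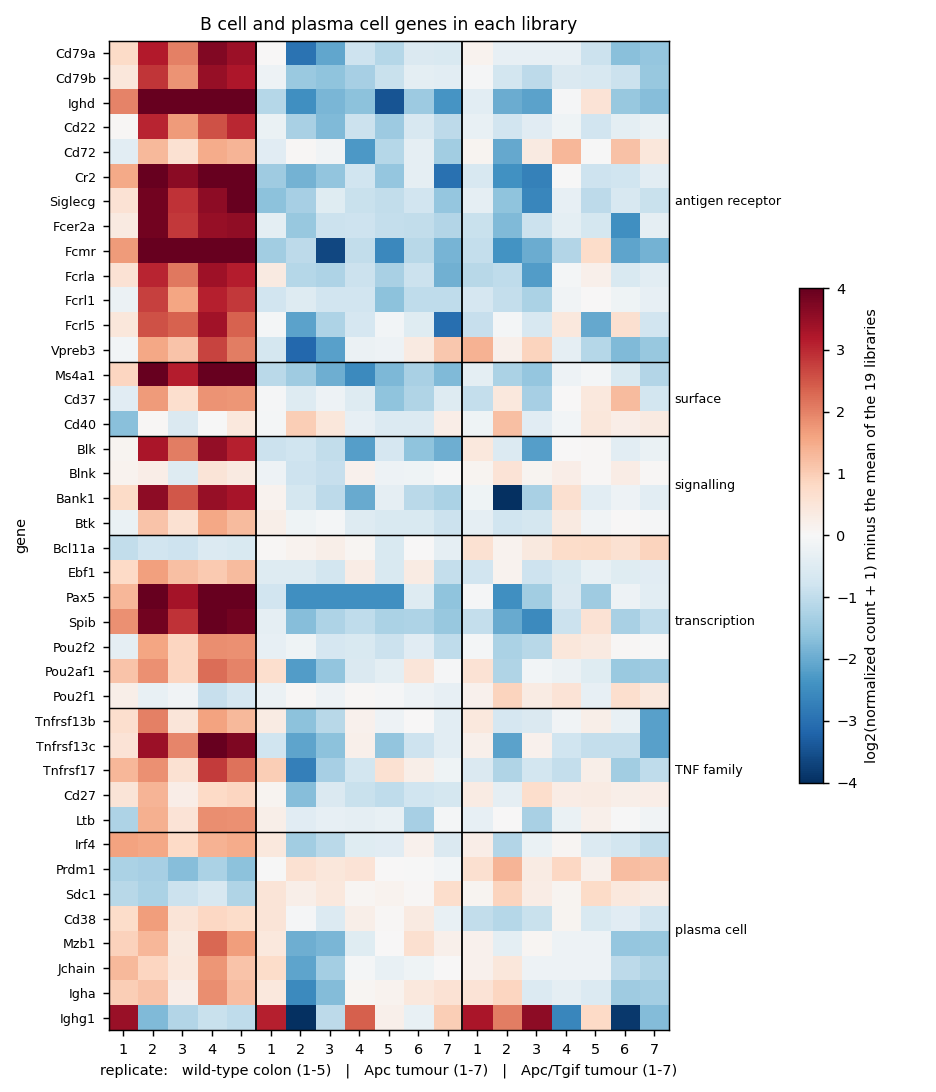
Level of each of the 40 genes (rows, grouped by role) in each of the 19 libraries (columns, by group and replicate), as log2(normalized count + 1) minus the mean of that gene over the libraries; colours stop changing at the ends of the scale. Most antigen receptor rows are high in the 5 wild-type columns and lowest among these in replicate 1, whereas Bcl11a, Prdm1 and Sdc1 are high in the tumour columns.

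Antigen receptor genes were lower almost throughout. All 13 tested were lower in Apc tumours and 12 of 13 in Apc/Tgif tumours, against 25.2% and 25.5% of all genes. Without Fcmr and Fcrl5 these counts were 11 of 11, with a median log2 fold change of −3.56, and 10 of 11, with a median of −3.31. Ighd, the constant region of the IgD that naive B cells carry (chromosome 12, 113406604 to 113416324, GRCm38), had 181.6, 1803, 779.2, 1772 and 1526 normalized counts in the 5 wild-type libraries, 3.25 to 20.06 in Apc tumours (median 11.94) and 9.62 to 66.7 in Apc/Tgif tumours (median 15.15). The lowest wild-type value was still above every tumour. Ighd fell by 6.46 (log2) in Apc tumours (SE 0.58, limma adjusted p = 3.85e-08) and fell by 5.45 in Apc/Tgif tumours (SE 0.58, limma adjusted p = 2.21e-07).

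Fcmr, the Fc receptor for IgM (chromosome 1, 130865669 to 130880791), whose promoter is the first shown above, had 39.11, 538.9, 210.5, 661 and 529.7 normalized counts in wild-type colon. It ran from 0 to 5.27 in Apc tumours (median 3.72) and from 1.34 to 19.81 in Apc/Tgif tumours (median 2.34), so that every tumour was lower than every wild-type library. Cr2, the complement receptor of mature B cells and follicular dendritic cells (chromosome 1, 195136811 to 195176716), had 79.2, 628.1, 345.7, 619 and 565.9 normalized counts in wild-type colon, 2.59 to 21.16 in Apc tumours (median 8.68) and 3.35 to 27.11 in Apc/Tgif tumours (median 15.08). Its ranges did not overlap either. Cr2 fell by 5.34 (SE 0.51, limma adjusted p = 9.94e-08) and 4.95 (SE 0.51, limma adjusted p = 1.77e-07), in the same order.

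The signalling pair behaved alike: Cd79a fell by 3.84 and 3.37 and Cd79b fell by 3.34 and fell by 3.22 in Apc and Apc/Tgif tumours. Neither was lost from any tumour, with Cd79a between 17.3 and 155.4 normalized counts over the 14 tumours. Among the receptors that restrain or modulate the signal, Siglecg fell by 4.23 and fell by 4.20, the low-affinity IgE receptor gene Fcer2a by 3.84 and 3.94, Cd22 by 3.19 and 2.58, and Fcrla by 3.56 and 3.31. The Fc receptor-like gene Fcrl1 fell by 3.03 in Apc tumours and fell by 2.61 in Apc/Tgif tumours, where its range overlapped that of wild-type colon. Its relative Fcrl5 ran from 10.15 to 82.14 normalized counts in wild-type colon, from 0 to 6.63 in Apc tumours and from 0.97 to 11.57 in Apc/Tgif tumours. The smallest falls in the group were those of Vpreb3 (2.27 and 1.88) and Cd72 (1.74 in Apc tumours). Cd72, an inhibitory coreceptor, had a log2 fold change of −0.72 in Apc/Tgif tumours (limma adjusted p = 0.259). Exons of Cd22 and Cd72 overlap genes of the opposite strand (Gm29439 and Tesk1), as do exons of Cd37, Bcl11a, Pax5 and Pou2f1, and no source used here says whether strand was counted, so reads of such partners cannot be told apart.

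**Figure D2:**
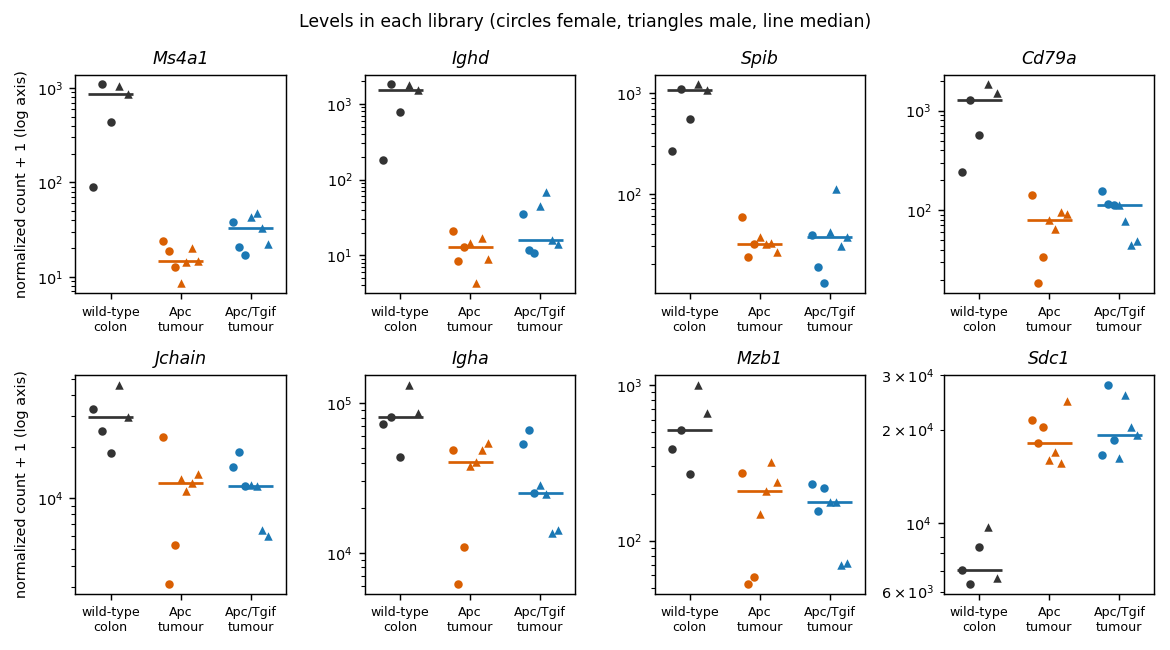
Normalized count + 1 on log axes (y) in each library of the 3 groups (x) for 8 genes, with circles for females, triangles for males and a line at the median. Ms4a1, Ighd, Spib and Cd79a are lower in all 14 tumours than in all 5 wild-type libraries, the ranges of Jchain and Igha overlap, and Sdc1 is higher in all 14 tumours.

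Among the other surface proteins, Ms4a1, which encodes CD20, the target of therapeutic B cell antibodies (chromosome 19, 11249675 to 11266241), had 88.61, 1093, 434.4, 1064 and 861.3 normalized counts in wild-type colon. It ran from 7.49 to 22.64 in Apc tumours (median 13.63) and from 15.88 to 46.19 in Apc/Tgif tumours (median 31.65), below every wild-type library. Ms4a1 fell by 5.17 in Apc tumours (SE 0.49, limma adjusted p = 7.66e-08) and by 4.23 in Apc/Tgif tumours (SE 0.49, limma adjusted p = 6.35e-07). Cd37, a tetraspanin of mature B cells and other leukocytes, had 175.1, 788.5, 385.8, 842.4 and 829.5 in wild-type colon, 78.49 to 232.4 in Apc tumours (median 166.8) and 94.87 to 584.9 in Apc/Tgif tumours (median 246.2). These ranges overlapped, and Cd37 fell by 1.82 (limma adjusted p = 0.00228) and 1.29 (limma adjusted p = 0.022). In Apc/Tgif tumours the calls of Cd37, Vpreb3 and Ltb were each lost without wild-type replicate 2, 4 or 5 (adjusted p from 0.0562 to 0.103). Cd40, the costimulatory receptor that B cells share with macrophages, dendritic cells and some epithelium, was between 33.56 and 145.4 in wild-type colon and between 73.98 and 254.3 in the tumours, and no comparison called it.

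Of the 4 kinases and adaptors below the receptor, 4 were lower in Apc and 3 in Apc/Tgif tumours, against 25.2% and 25.5% of all genes. Blk, a Src family kinase of B cells, had 30.28, 278.6, 120.0, 329.1 and 248.3 normalized counts in wild-type colon, 5.27 to 17.32 in Apc tumours (median 13.66) and 5.34 to 38.04 in Apc/Tgif tumours (median 23.38). It fell by 3.77 (limma adjusted p = 9.26e-06) and 2.88 (limma adjusted p = 0.000146), and its ranges were apart only for Apc tumours. Bank1, a scaffold of the receptor's calcium response, fell by 3.77 and 3.91, and was listed at 0 in 1 Apc/Tgif tumour and at 9.56 to 64.37 in the other 13 tumours. Btk, a kinase also used by myeloid cells, fell by 1.27 and 1.14, to medians of 75.94 and 99.05 from a wild-type median of 243.2. Blnk, the linker that BTK and SYK signal through, was the least changed: 2631 to 5307 in wild-type colon, 1977 to 4215 in Apc tumours and 3816 to 5401 in Apc/Tgif tumours. Blnk fell by 0.51 in Apc tumours (limma adjusted p = 0.0181) and had a log2 fold change of −0.01 in Apc/Tgif tumours, and its fall in Apc tumours was not called without wild-type replicate 2 (adjusted p = 0.0507), wild-type replicate 4 (0.0563) or Apc replicate 3 (0.0507).

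Of the 7 transcription factors, 5 (4 of 6 without Pax5) were lower in each tumour group. In Apc tumours 1 was higher, and in Apc/Tgif tumours 2 were higher. Over all genes, 25.2% and 25.5% were called lower and 23.9% and 24.8% higher in Apc and Apc/Tgif tumours. Spib, an ETS factor of B cells, plasmacytoid dendritic cells and M cells (chromosome 7, 44525993 to 44532071), had 266.2, 1096, 557.6, 1229 and 1082 normalized counts in wild-type colon, 22.25 to 57.24 in Apc tumours (median 30.72) and 11.75 to 110.5 in Apc/Tgif tumours (median 35.85). Spib fell by 4.60 (SE 0.41, limma adjusted p = 4.48e-08) and 4.57 (SE 0.41, limma adjusted p = 3e-08), with no overlap. Pax5, which fixes B cell identity, had 12.62, 141.6, 53.93, 172.4 and 160.6 in wild-type colon, was listed at 0 in 4 of 7 Apc tumours and 1 of 7 Apc/Tgif tumours, and reached at most 2.84 and 4.35. Every tumour lay below every wild-type library, but the rule for testing fixed this order. Pax5 missed the count needed for testing in every tumour library, so every wild-type library had to reach that count. Ebf1, which B lineage cells and stromal cells use, fell by 1.60 and 1.68, and Pou2f2 by 1.84 and 1.48. The octamer coactivator gene Pou2af1, which plasma cells keep, fell by 2.17 and 2.27.

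Bcl11a, a repressor of lymphoid progenitors that many other cells express, had 385.6, 453.9, 426.8, 528.2 and 499.1 normalized counts in wild-type colon, 505.2 to 905.0 in Apc tumours (median 789) and 847.4 to 1418 in Apc/Tgif tumours (median 1168). Bcl11a rose by 0.67 in Apc tumours (limma adjusted p = 0.0015) and by 1.33 in Apc/Tgif tumours (limma adjusted p = 8.7e-07), where all tumours lay above wild-type colon. Pou2f1, the ubiquitous octamer factor, had 1993, 1397, 1553, 908.1 and 1066 in wild-type colon, 1356 to 1766 in Apc tumours and 1372 to 3156 in Apc/Tgif tumours. It rose by 0.79 in Apc/Tgif tumours (limma adjusted p = 0.00136) with overlapping ranges and was not called in Apc tumours (0.26, limma adjusted p = 0.244).

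Several TNF family receptors take the survival signals BAFF and APRIL. Of the 5 genes of this family 5 were lower in Apc and 4 in Apc/Tgif tumours, against 25.2% and 25.5% of all genes. Tnfrsf13c, the BAFF receptor of naive B cells, had 31, 238.2, 85.34, 384.9 and 295.4 normalized counts in wild-type colon, 4.16 to 24.48 in Apc tumours (median 11.35) and 3.93 to 24.43 in Apc/Tgif tumours (median 10.52). It fell by 3.89 (limma adjusted p = 1.69e-05) and 3.81 (limma adjusted p = 1.72e-05) without overlap. Tnfrsf17, which encodes BCMA, the receptor that sustains plasma cells, had 42.9, 61.65, 26.1, 122.1 and 78.6 in wild-type colon, 1.65 to 33.45 in Apc tumours (median 14.51) and 5.67 to 19.81 in Apc/Tgif tumours (median 8.04). It fell by 2.33 (limma adjusted p = 0.000746) and 2.68 (limma adjusted p = 0.000172). Tnfrsf13b, which encodes TACI, a receptor for both ligands, fell by 1.67 and 1.72, and Ltb, a lymphotoxin chain that shapes follicles, by 1.34 and 1.23, with overlapping ranges for Ltb. Cd27, a receptor of activated lymphocytes and plasma cells that T cells also carry, fell by 1.55 in Apc tumours (limma adjusted p = 0.000198) and was not called in Apc/Tgif tumours (−0.50, limma adjusted p = 0.156).

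Of the 8 tested plasma cell genes, 5 were lower and 2 higher in each tumour group. Over all genes, 25.2% and 25.5% were called lower and 23.9% and 24.8% higher in Apc and Apc/Tgif tumours. The share of the 8 called higher, 25%, was thus near that background. Jchain (chromosome 5, 88519809 to 88527891) had 33384, 24566, 18313, 46019 and 29793 normalized counts in wild-type colon, 3141 to 22691 in Apc tumours (median 12205) and 5972 to 18660 in Apc/Tgif tumours (median 11819). The highest Apc tumour and the highest Apc/Tgif tumour lay above the lowest wild-type library. Jchain fell by 1.58 in Apc tumours (SE 0.40, limma adjusted p = 0.00318) and by 1.44 in Apc/Tgif tumours (SE 0.40, limma adjusted p = 0.00604). Igha, the constant region of IgA (chromosome 12, 113254830 to 113260236), had 72210, 81187, 43706, 132304 and 86319 in wild-type colon, 6222 to 54408 in Apc tumours (median 40283) and 13632 to 66503 in Apc/Tgif tumours (median 24933). Its ranges overlapped, and it fell by 1.54 (SE 0.52, limma adjusted p = 0.0202) and 1.56 (SE 0.52, limma adjusted p = 0.0181). The Jchain call in Apc/Tgif tumours was lost in females alone, where the log2 fold change was −0.72 (adjusted p = 0.359), and so was that of Igha (−0.51, 0.565). The Igha call in Apc tumours was lost without wild-type replicate 4 (adjusted p = 0.0626), Apc replicate 2 (0.0525) or Apc replicate 3 (0.0546), and that in Apc/Tgif tumours without wild-type replicate 4 (0.0578). Mzb1, an endoplasmic reticulum protein that helps assemble antibodies, fell by 1.82 (limma adjusted p = 0.0031) and 1.92 (limma adjusted p = 0.00194).

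Irf4, needed for plasma cell formation and also used by activated T cells, fell by 1.87 and 1.86, with all tumours (53.56 to 190.2 normalized counts) below wild-type colon (248.8 to 437.7). Cd38, an ectoenzyme that many cell types carry, had 8696, 16610, 7525, 9245 and 8781 in wild-type colon, 3559 to 7527 in Apc tumours (median 5385) and 2384 to 5667 in Apc/Tgif tumours (median 3044). It fell by 0.90 (limma adjusted p = 0.00245) and 1.61 (limma adjusted p = 6.08e-06), and its highest Apc tumour, at 7527, lay just above the lowest wild-type library, at 7525. Ighg1, the constant region of IgG1, ranged from 52.52 to 1977 in wild-type colon and from 3.3 to 2177 in the tumours, and no comparison with wild-type colon called it (SE 1.43).

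Prdm1 and Sdc1 rose. Both are plasma cell markers that intestinal epithelium is also known to express. Prdm1 (chromosome 10, 44437177 to 44528501) had 297.2, 288.2, 221.7, 300.2 and 230.5 normalized counts in wild-type colon, 664.6 to 1096 in Apc tumours (median 723.4) and 827.8 to 1863 in Apc/Tgif tumours (median 1275). Prdm1 rose by 1.66 in Apc tumours (SE 0.21, limma adjusted p = 2.36e-06) and by 2.27 in Apc/Tgif tumours (SE 0.21, limma adjusted p = 3.1e-08), with all tumours above wild-type colon. Sdc1, the surface proteoglycan syndecan-1 (chromosome 12, 8771323 to 8793715), had 7041, 6363, 8330, 9681 and 6651 in wild-type colon, 15585 to 24642 in Apc tumours (median 18040) and 16233 to 27880 in Apc/Tgif tumours (median 19241). Sdc1 rose by 1.32 (limma adjusted p = 1.46e-06) and 1.43 (limma adjusted p = 3.96e-07), again with no overlap. Which cells carry this RNA was not tested.

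**Figure D3:**
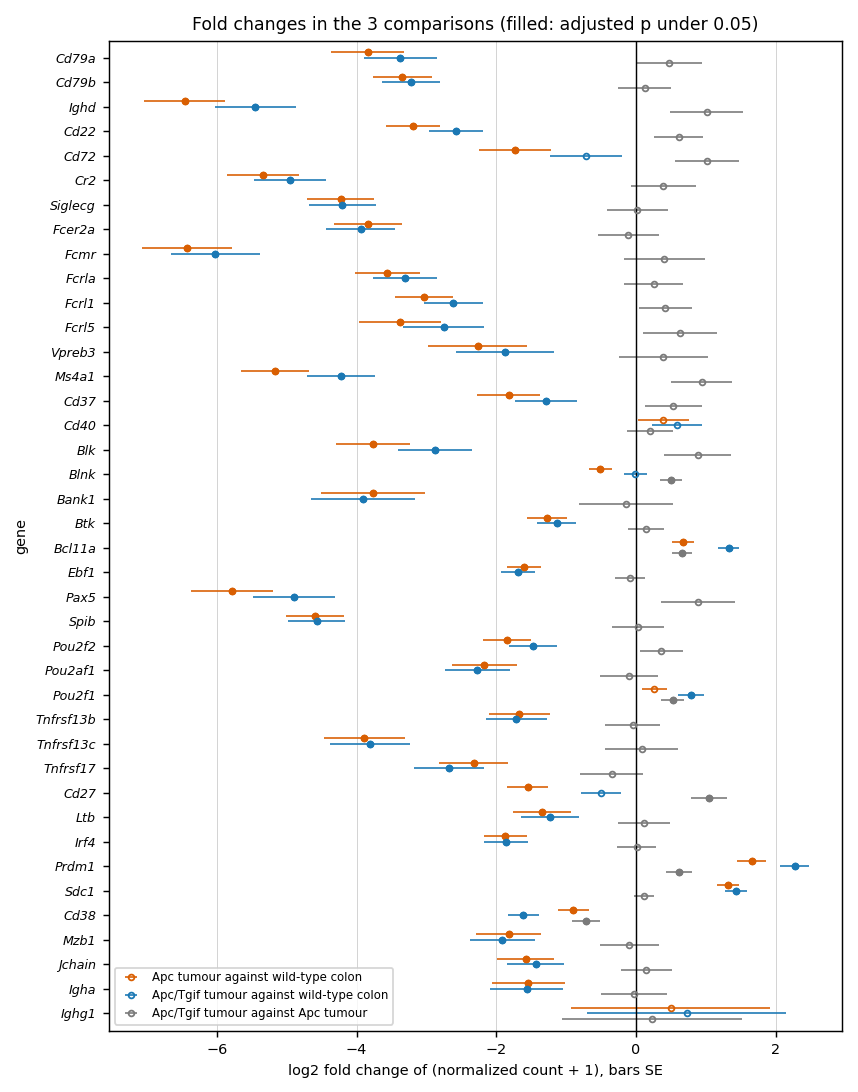
Log2 fold change of normalized count + 1 (x, bars give the SE) for each of the 40 genes (y) in the comparisons of Apc tumours with wild-type colon, of Apc/Tgif tumours with wild-type colon and of Apc/Tgif with Apc tumours; filled points have a limma adjusted p under 0.05. The first pair of comparisons spreads from about −6.46 for Ighd to 2.27 for Prdm1. Pax5, Fcmr and Fcrl5 are drawn although the filter kept them only through wild-type libraries, and most grey points of the tumour comparison are open.

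The comparison of Apc/Tgif with Apc tumours asked whether the Tgif deletions shift these genes within tumours. Of the 40 genes, 5 were higher in Apc/Tgif tumours (Bcl11a, Blnk, Cd27, Pou2f1 and Prdm1), 1 was lower (Cd38) and 34 were not called. Over all 18445 genes, 7.88% were called higher and 8.76% lower, so the share called higher among the 40 genes was near that background. No gene of the 40 had ranges apart, against 2.30% of all genes in the higher and 1.77% in the lower direction, and the median log2 fold change was 0.24 against −0.01. Of the 13 antigen receptor genes limma called 0, and 1 had an unadjusted p under 0.05. Cd72, with a log2 difference of 1.02 (limma adjusted p = 0.152), was called without Apc/Tgif replicate 2, its low library (1.40, adjusted p = 0.0192), with array weights (1.48, 0.0138) and in males alone (2.03, 0.00825), where Fcrla (1.02, 0.0451) and Fcrl1 (0.95, 0.0303) were called as well.

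Bcl11a had the smallest p of the 6 and rose by 0.65 (SE 0.14, limma adjusted p = 0.00349). Cd27 rose by 1.05 (SE 0.26, limma adjusted p = 0.00918), from 5.09 to 20.28 normalized counts in Apc tumours (median 10.33) to 14.18 to 31.04 in Apc/Tgif tumours (median 23.08), beside 27.27, 48.94, 22.47, 33.37 and 34.43 in wild-type colon. Cd38 fell by 0.71 (SE 0.20, limma adjusted p = 0.0195). These 3 calls held when any single library was left out. In females alone, however, Bcl11a (0.24, limma adjusted p = 0.291) and Cd27 (0.93, 0.216) were not called. Cd38 was not called in females alone (limma adjusted p = 0.0512), in males alone (0.0999) or with array weights (0.165). The count of 5 higher genes was 3 without Apc replicate 1, 3, 5 or 7 or without Apc/Tgif replicate 2, 6 or 7. Prdm1 rose by 0.62 (limma adjusted p = 0.0287), Blnk by 0.50 (0.0302) and Pou2f1 by 0.52 (0.0354). The calls of Prdm1, Blnk and Pou2f1 were each lost without some single library: without Apc/Tgif replicate 2, for example, their adjusted p was 0.0573, 0.0607 and 0.0693. Relative to the pan-leukocyte gene Ptprc limma called 0 of the 40 genes between the tumours, where 1 had an unadjusted p under 0.05 in each direction. Ms4a1 had a log2 difference of 0.94 between the tumours (limma adjusted p = 0.162), which was called without wild-type replicate 1 (adjusted p = 0.0378) and in males alone (1.34, 0.0212).

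Ratios within a library show how the genes moved against each other, whatever the library factor. They were formed as (a + 1)/(b + 1) from normalized counts, and 6 pairs in 3 comparisons gave 18 exact permutation tests, of which 8 had an adjusted p under 0.05. The ratio of Jchain to Ms4a1 had a median of 42.06 in wild-type colon (22.46 to 372.6), 777.5 in Apc tumours (169.3 to 1531) and 275.5 in Apc/Tgif tumours (200 to 909.4). Wild-type replicate 1 held the highest wild-type ratio, and the other 4 lay below every tumour. The ratio was 11.6-fold higher in Apc tumours (two-sided exact permutation p = 0.00253, adjusted p = 0.00758) and 6.69-fold higher in Apc/Tgif tumours (exact permutation p = 0.00631, adjusted p = 0.0162). Between the tumours it did not pass (log2 difference −0.79, exact permutation p = 0.139, adjusted p = 0.251).

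Against the pan-leukocyte gene Ptprc, the B cell gene Ms4a1 and the plasma cell gene Jchain differed. Not all B cell and plasma cell genes split in this way in the limma fit relative to Ptprc. There the B cell genes Cd79a and Cr2 stayed lower in Apc tumours, but Ebf1 was not called (−0.68, limma adjusted p = 0.186). The plasma cell gene Tnfrsf17 stayed lower, but Mzb1 was not called (−0.91, limma adjusted p = 0.216). The ratio of Ms4a1 to Ptprc ran from 0.114 to 0.467 in wild-type colon, from 0.00992 to 0.0354 in Apc tumours and from 0.0195 to 0.0604 in Apc/Tgif tumours. It was 18.1-fold lower in Apc tumours and 10.3-fold lower in Apc/Tgif tumours (exact permutation p = 0.00126 each, the smallest that 5 against 7 libraries can give, adjusted p = 0.00455). The ratio of Jchain to Ptprc ran from 10.5 to 42.3 in wild-type colon, from 2.10 to 22.9 in Apc tumours and from 5.18 to 20.5 in Apc/Tgif tumours, and its log2 differences from wild-type colon of −0.64 and −0.62 did not pass (exact permutation p = 0.371 and 0.254, adjusted p = 0.514 and 0.381). Against the T cell gene Cd3e, Ms4a1 was 18.2-fold and 14.7-fold lower (exact permutation p = 0.00126 each, adjusted p = 0.00455). Between the tumours no ratio passed, but that of Ms4a1 to Ptprc, with a log2 difference of 0.82 (exact permutation p = 0.0303, adjusted p = 0.0606), passed without Apc replicate 6 (adjusted p = 0.0157) or Apc/Tgif replicate 7 (0.0478), and that of Ms4a1 to Cd3e without Apc replicate 6 (0.0241). Igha to Jchain was near its wild-type value in both tumour groups (log2 differences of 0.07 and −0.10, exact permutation adjusted p = 0.787 and 0.656).

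**Figure D4:**
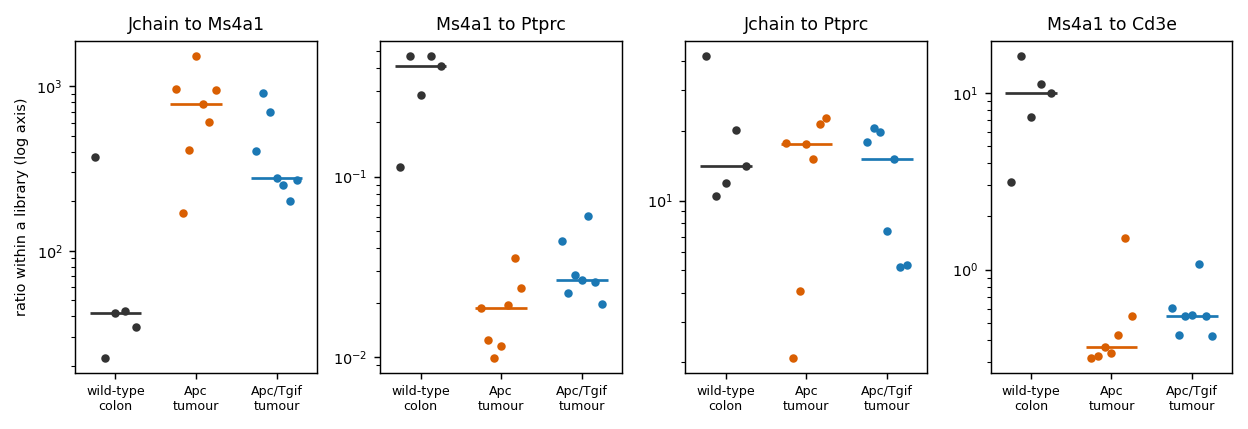
Ratios of normalized count + 1 within each library on log axes (y) for 4 gene pairs in the 3 groups (x), with 1 point per library and a line at the median. Ms4a1 against Ptprc and against Cd3e is lower in all 14 tumours than in all 5 wild-type libraries, whereas Jchain against Ptprc overlaps among the groups.

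The markers of other cells gave the setting of these falls. Beside their counts stand the shares over all genes: 25.2% lower and 23.9% higher in Apc tumours, and 25.5% and 24.8% in Apc/Tgif tumours. Of 6 pan-leukocyte genes, 4 were lower in Apc and 1 in Apc/Tgif tumours, with Ptprc down by 0.91 and 0.79 (limma adjusted p = 0.0215 and 0.0421). Of 11 T cell genes, 4 and 3 were lower, and their summed level was 1156 to 1956 normalized counts in wild-type colon, 1178 to 1812 in Apc and 924 to 1470 in Apc/Tgif tumours. Of 6 macrophage genes none was lower, and 3 and 5 were higher. All 8 smooth muscle genes were lower in both tumour groups, with summed levels of 200911 to 299987 in wild-type colon against 10043 to 22505 in the tumours. M cells, which also express Spib, were followed by 5 markers: 2 of 5 were higher and 2 lower in Apc tumours, and 1 higher and 2 lower in Apc/Tgif tumours. The part of tissue layers and cell makeup in the falls of the B cell genes was not tested.

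Genes of the pathway outside the 42 were counted from lists of their own. Over all genes tested, 25.2% were called lower and 23.9% higher in Apc tumours, and 25.5% and 24.8% in Apc/Tgif tumours. The counts of the pathway lists that follow stand beside those shares, and no test was made of them. Of 15 further antigen receptor pathway genes, 6 were lower and 3 higher in Apc tumours, and 6 lower and 6 higher in Apc/Tgif tumours. The 20% called higher in Apc tumours lay near the share of all genes. Prkcb, a kinase downstream of the receptor, fell by 2.28 in Apc tumours, and Syk, which epithelium also expresses, fell by 1.13 in Apc/Tgif tumours and by 0.48 between the tumours (limma adjusted p = 0.00518). Dapp1, an adaptor of activated B cells and other cells, rose by 0.64 between the tumours (limma adjusted p = 0.000178).

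Of 6 germinal centre genes, 3 were lower and 1 higher in each tumour group against wild-type colon. Rgs13, a regulator of chemokine signalling in germinal centre B cells that tuft cells also express, fell by 5.44 in Apc/Tgif tumours (limma adjusted p = 1.1e-07) and by 2.01 between the tumours (limma adjusted p = 0.00829). The gene that rose was S1pr2, a sphingosine phosphate receptor also found in blood vessels, by 1.04 in Apc tumours (limma adjusted p = 2.84e-06). Of 10 further secretory genes of plasma cells, 5 were lower in each tumour group, and 1 and 2 were higher. Eaf2, an elongation factor partner of B lineage cells, fell by 1.94 and 2.28 and Slamf7 by 1.78 in Apc tumours, whereas Sec11c, a signal peptidase subunit, rose by 0.54 between the tumours (limma adjusted p = 0.00769). Of 7 further antibody constant genes only Ighg2c and Ighe were tested, and neither was called by limma in any comparison of the groups: 0 of 2 had an unadjusted p under 0.05 against wild-type colon and 1 of 2 between the tumours.

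Of 20 tested genes for survival and homing of B lineage cells, 12 were lower and 1 higher in Apc tumours, and 11 lower and 1 higher in Apc/Tgif tumours. Pigr had 219628, 232161, 176992, 167476 and 162673 normalized counts in wild-type colon, 31127 to 62918 in Apc tumours and 41012 to 100674 in Apc/Tgif tumours, all below wild-type colon. Pigr fell by 2.02 in Apc tumours (limma adjusted p = 3.76e-07). Ccl28, the epithelial chemokine that draws IgA plasmablasts to the colon, had 11567, 10223, 11732, 6314 and 7091 in wild-type colon, 1023 to 2907 in Apc tumours and 572.8 to 1420 in Apc/Tgif tumours. Ccl28 fell by 3.58 in Apc/Tgif tumours (limma adjusted p = 8.98e-09) and fell by 1.20 between the tumours (limma adjusted p = 0.00416). Its receptor on plasmablasts, Ccr10, named here after its values were seen, fell by 1.88 and 2.00. Cxcr5, which leads B cells into follicles, fell by 2.87 in Apc tumours. Of 7 lymphotoxin pathway genes, 3 were higher and 1 lower in each comparison with wild-type colon, with Traf3 up by 0.31 and 0.32 and Nfkb2 by 0.37 and 0.36. The share called lower among these 7 was 14.3%, below that of all genes (25.2% and 25.5%).

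Within each tumour group, 9 pairs of genes were related over the 7 tumours on the log2 scale, which gave 18 relations, and 5 had an adjusted p under 0.05. Each group holds 3 females and 4 males, and the relations had no term for sex. Apc replicates 2 and 3, named below, were both female. The part of sex in these relations was not tested. Jchain and Igha had r = 0.957 in Apc/Tgif tumours (exact permutation p = 0.00635, adjusted p = 0.0429; rho = 0.929, exact permutation p = 0.00675) and r = 0.980 without the 2 tumours farthest from the median. In Apc tumours their r was 0.947 (exact permutation p = 0.00714, adjusted p = 0.0429; rho = 0.75, exact permutation p = 0.0663), but 0.378 without replicates 2 and 3, the lowest 2 in Jchain, so the relation rests on those tumours. Jchain and Pigr, the epithelial transporter of its product, had r = 0.890 in Apc/Tgif tumours (exact permutation p = 0.0103, adjusted p = 0.0464; rho = 0.964, exact permutation p = 0.00278) and r = 0.920 without 2 tumours. In Apc tumours they had r = 0.895 (exact permutation p = 0.00318, adjusted p = 0.0429; rho = 0.893, exact permutation p = 0.0123), and 0.566 without replicates 2 and 3. Jchain and Mzb1 had r = 0.900 in Apc tumours (exact permutation p = 0.0135, adjusted p = 0.0486) and 0.845 in Apc/Tgif tumours (exact permutation p = 0.0357, adjusted p = 0.107), and these fell to 0.279 and −0.304 without 2 tumours. No rho passed the adjustment over the 18 relations, where the lowest adjusted p was 0.05.

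No relation of Ms4a1 passed. With Jchain its r was 0.093 in Apc and 0.037 in Apc/Tgif tumours (exact permutation p = 0.833 and 0.932, adjusted p = 0.947 each), and with Cd79a it was 0.128 and 0.046 (exact permutation p = 0.770 and 0.918, adjusted p = 0.947 each). The largest r of Ms4a1 was 0.757 with Cr2 in Apc/Tgif tumours (exact permutation p = 0.0566, adjusted p = 0.145), which was −0.025 without 2 tumours. Leaving out the 2 tumours farthest in Ms4a1 also raised r, to 0.786 with Jchain and 0.602 with Cd79a in Apc/Tgif tumours and to 0.683 with Myh11 in Apc tumours, over 5 tumours each. With Cd3e in Apc/Tgif tumours r was 0.631 (exact permutation p = 0.126, adjusted p = 0.284) and 0.108 without 2 tumours. Ms4a1 lay at 7.49 to 46.19 normalized counts in these tumours, and the part of its precision at such levels in these relations was not tested.

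**Figure D5:**
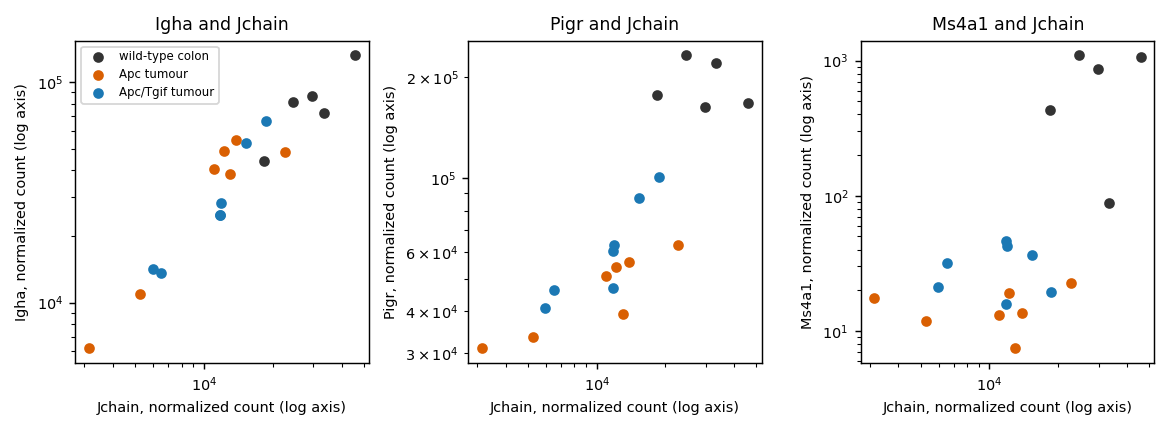
Normalized counts of Igha, Pigr and Ms4a1 (y, log axes) against Jchain (x, log axis), 1 point per library, coloured by group. Igha and Pigr rise with Jchain within both tumour groups, with the lowest 2 Apc tumours far from the other 5, and Ms4a1 with Jchain has r of 0.093 and 0.037.

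Each effect was also compared between the sexes, as its size in males minus its size in females. For Apc tumours against wild-type colon limma called none of the 40 genes, against 0.0108% and 0% of all genes called higher and lower. An unadjusted limma p was under 0.05 in 11 of the 40 (1 higher and 10 lower in males). The share of all genes at that unadjusted threshold was not counted, so the 11 have no background beside them. For Apc/Tgif tumours beside wild-type colon 1 gene was called lower, Vpreb3, against 1.68% higher and 1.73% lower of all genes. Between the tumours 3 genes were called higher (Cd72, Btk and Bcl11a) and 4 lower (Vpreb3, Igha, Mzb1 and Ighg1), against 11.6% and 11.9% of all genes. The shares of the 40 genes were thus near the background in this contrast.

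Vpreb3, a partner of the antibody chains in B cell precursors, had the smallest p. Apc tumours had 8.92, 0.82 and 2.56 normalized counts in females and 12.66, 12.99, 19.88 and 33.06 in males. Apc/Tgif tumours had 41.3, 17.46 and 28.84 in females and 11.62, 6.26, 3.78 and 4.68 in males, so the order of the genotypes turned over between the sexes without overlap. Many of these values lie near or below 10 normalized counts, where precision is least. The difference of the log2 effects was −4.28 (SE 0.79, limma adjusted p = 0.00191).

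Igha followed the same direction, with 48408, 6222 and 10908 normalized counts in female and 38255, 40283, 48489 and 54408 in male Apc tumours. Apc/Tgif tumours had 53114, 66503 and 24933 in females and 28379, 24841, 13632 and 14160 in males. All 4 male Apc/Tgif tumours lay below all 4 male Apc tumours, and the females overlapped. The difference of the effects was −2.81 (SE 0.72, limma adjusted p = 0.0115) for Igha and −2.05 (SE 0.70, limma adjusted p = 0.0435) for Mzb1. Jchain had a difference of −1.59 that was not called (limma adjusted p = 0.0856). Each sex holds 3 or 4 tumours per group, and no label says which mice shared a cage or litter.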

How the data were processed

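RNA-seq of 19 colon and colon tumour libraries was analysed from 1 deposited table of 32694 gene symbols. The deposited values are normalized counts per gene, a signal scaled by the authors to make libraries comparable. Salmon, DESeq2, GRCm38 and mm10 are named in the submitters' processing notes, and no version, annotation or strand setting is given. Within a tolerance of 0.1 of a step, 84% to 87.2% of low values were whole multiples of 1 count per library, so whole reads were not recovered and the count test that the design named for raw counts was replaced by its stated substitute, limma.

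Normalized counts plus 1 were taken to log2 and fitted with limma 3.58.1 (R 4.3.3) over all 19 libraries, with group and sex as terms, an intensity trend and robust moderation. Genes needed a normalized count of 10 in at least 5 libraries. P-values were adjusted by Benjamini-Hochberg over the 18445 genes of a comparison, threshold 0.05, two-sided. Fold changes on this scale understate low genes, and values near 10 have the least precision. The totals of 34417808 to 44732717 are of normalized counts, so they do not give the depth sequenced. Ratios and relations were tested by exact permutation over libraries (NumPy 2.4.6), with no term for sex. The mice were separate animals, 1 library each, and no table column lacked a sample.

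The genes and lists were chosen with earlier results of these data known. Named genes were, in each role list, up to 3 with the smallest p against wild-type colon, all called between the tumours, and up to 2 of smallest p in each pathway list. Genes of the ratios and relations were fixed as pairs, and 2 pairs with Ighm were left out. Some results for genes outside the 42, with 1 ratio, are not reported here. Alternatives were other pseudocounts, filters, scalings, weights and prior settings, single sexes, the 2 groups alone, each library left out and, added after the values were seen, the 3 libraries high in Rn45s left out. The steps were tested on simulated data. Positions are from GENCODE and promoters from RefSeq.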

Additional observations from a re-analysis of the deposited data

Results flagged for a closer look

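Of 120 sets of values (40 genes in 3 groups), 11 held a library far from the others of its group, where chance flags about 1 in 20. Low libraries were Cd72 in Apc/Tgif replicate 2 (47.69 normalized counts), Cr2 in wild-type replicate 1 (79.2), Blk in Apc/Tgif replicate 3 (5.34), Bank1 in Apc/Tgif replicate 2 (0), Tnfrsf13b in Apc/Tgif replicate 7 (3.17), Cd27 in Apc/Tgif replicate 2 (14.18), Ltb in Apc replicate 6 (51.92) and Apc/Tgif replicate 3 (53.16), and Irf4 in wild-type replicate 3 (248.75). High libraries were Cd38 in wild-type replicate 2 (16610.31) and Ighg1 in wild-type replicate 1 (1977.12).

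The effect differed between the sexes, in males minus females on the log2 scale, for Vpreb3 in Apc/Tgif tumours against wild-type colon (−3.55, limma adjusted p = 0.0374). Between the tumours it differed for Vpreb3 (−4.28, adjusted p = 0.00191), Igha (−2.81, 0.0115), Mzb1 (−2.05, 0.0435), Ighg1 (−6.73, 0.0347), Cd72 (2.36, 0.0362), Btk (1.30, 0.0212) and Bcl11a (0.72, 0.0288). In Btk the females lay at 127.85, 96.4 and 104.12 in Apc and 84.78, 63.12 and 67.29 in Apc/Tgif tumours, and the males at 60.48 to 75.94 and 99.05 to 140.32, so the genotypes did not overlap in either sex and stood in opposite order.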

How the results depend on the processing

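The number of genes lower in Apc tumours (34) was 32 to 34 when single libraries were left out, and in Apc/Tgif tumours (31) it was 27 to 31. These counts, and those below relative to Ptprc and in single sexes, include Pax5, Fcmr and Fcrl5, which had to be lower to be tested. With a filter of 50, which left 28 genes, 22 and 20 were lower (24.7% and 25% of all genes). Some of the 28, Ms4a1 and Cr2 among them, reached 50 only in wild-type libraries and so had to be lower to be tested. No count without such genes was made at this filter. Read relative to Ptprc, which put the median of all genes at 0.90 and 0.80, 18 and 19 were lower against 5.52% and 7.88% of all genes, and 5 were higher in Apc tumours against 46.4%. Between the tumours 0 were then higher and 0 lower (1.02% and 2.43% of all genes). On that scale the signs of Blnk (0.40) and Cd38 (0.0136) in Apc tumours turned. Females alone gave 26 and 22 lower (22.1% of all genes each), and males alone 33 and 31 (16.5% and 21.2%).

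Between the tumours, the 5 higher genes became 3 with equal library totals (5.85% of all genes), 2 in females alone (12.1%) and 10 in males alone (8.37%; 3 of these among the 5), and 3 to 6 with single libraries left out. The lower gene, Cd38, became 0 in females alone (12%), 0 with array weights (11.9%), and 2 other genes in males alone (8.99%). In males alone Vpreb3 turned to −1.44. For the sex difference between the tumours, equal totals gave 1 higher gene in place of 3, and of the 5 called relations between genes 2 stayed. The cause of these changes was not tested. No paired analysis was possible because the replicate numbers carry no pairing between the groups. Values near 10 normalized counts have the least precision.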
